A study of Mus musculus with 4 samples.

Results

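Flt1, Plvap and Vwf, which mark the endothelial lining of blood vessels, and Rgs5, which marks pericytes, were followed in cardiac neural crest cells (NCCs) with and without integrin-linked kinase (ILK). A probe set was included if it was listed under a single one of these genes in the deposited table of differing probe sets. This gave 6 probe sets of the 45037 that were tested, with 2 each for Flt1 and Rgs5 and 1 each for Plvap and Vwf. The 4 genes are among 542 that could be named alone. The members were thus selected on their intensities in NKO and control samples of these same arrays, so the differences below are a description and carry no test. Probe sets of the 4 genes outside the table carry no name here and were not analysed, so values just outside the selection cannot be given.

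NCCs were sorted at E10.5 from the outflow tract (OFT) of NKO mutants (Wnt1-Cre;ILK f/f), in which Cre removes ILK from the neural crest, and from control littermates. The controls are wild type in the labels but carry Wnt1-Cre with 1 floxed and 1 intact Ilk allele in the methods, by which both genotypes hold Cre. Cells of the Wnt1-Cre lineage were stained through a lacZ reporter, OFTs of a genotype were pooled, and cells of several sorts were combined before RNA extraction. Each genotype has 2 samples that the labels number as biological replicates (NKO 1 and 2, control 1 and 2), each on 1 Affymetrix mouse array. How many embryos went into each was not given in the sources used here.

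Blood vessels are built from an inner endothelium, which arises from mesoderm, and from mural cells around it, pericytes and smooth muscle cells, some of which come from the neural crest in the pharyngeal arch arteries and the head. Endothelial cells sense vascular endothelial growth factor (VEGF) through receptor kinases, form diaphragms over their vesicles and pores, and store von Willebrand factor, the adhesive protein that holds platelets to a damaged wall. Pericytes respond to signals through G-protein coupled receptors, whose signals RGS proteins shorten by speeding up the hydrolysis of GTP on the G protein. The values come from bulk RNA, in which a different number of cells of a type and a different amount of RNA per cell cannot be told apart.

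The arrays were similar as a whole. Their median intensity lay between 75.9 and 79.3, their correlations over all probe sets between 0.9948 and 0.9968, and the median difference between the genotypes was 0.013 on the log2 scale. The intensity of Ilk, the targeted gene, was 467.7 and 386.7 in the mutants against 809.5 and 800.7 in the controls, in the direction of the labels. The ratio of the means, NKO over control, was 0.53. This probe set too had been selected as different on these arrays, so it is not an independent check of the labels. The Affymetrix hybridization controls, labelled bacterial and phage transcripts added to each sample before hybridization, were higher in the NKO samples for all 18 of their features, by 0.08 to 0.31 on the log2 scale with a median of 0.22. That is close in size to several differences below, and its part in them was not tested.

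Promoters are shown for Flt1, whose probe sets gave the same difference, and Rgs5, whose probe sets gave opposite ones. They were taken from the RefSeq table of build GRCm38.p6, which matched these 2 of the 4 genes. Each runs from 250 bases before to 50 bases after the annotated start. Capitals mark matches, on either strand, to TATAAA (a core element that the general factor TFIID binds), TGACGTCA (cAMP response element), AGGAAG (a core bound by ETS factors, a family with many endothelial targets) and CCAAT, the box of that name. No 2 matches overlap. The first sequence lies at chr5:147725962-147726261 on the minus strand and the second at chr1:169655251-169655550 on the plus strand.
Flt1: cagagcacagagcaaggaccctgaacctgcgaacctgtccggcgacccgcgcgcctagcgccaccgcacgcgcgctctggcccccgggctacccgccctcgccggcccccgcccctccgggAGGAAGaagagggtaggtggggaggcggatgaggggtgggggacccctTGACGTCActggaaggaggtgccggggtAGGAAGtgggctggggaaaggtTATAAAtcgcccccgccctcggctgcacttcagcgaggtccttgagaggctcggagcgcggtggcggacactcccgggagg
Rgs5: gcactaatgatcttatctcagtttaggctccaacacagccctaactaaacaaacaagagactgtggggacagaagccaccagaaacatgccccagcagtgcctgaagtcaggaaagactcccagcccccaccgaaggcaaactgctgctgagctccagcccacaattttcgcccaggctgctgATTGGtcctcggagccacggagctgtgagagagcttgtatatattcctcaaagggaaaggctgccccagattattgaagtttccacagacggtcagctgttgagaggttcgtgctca
The Flt1 sequence holds 2 AGGAAG matches, a TGACGTCA that begins 81 bases before the start and a TATAAA that begins 31 bases before it, and 70.7% of its bases are G or C. The Rgs5 sequence holds 1 match, to CCAAT on the reverse strand, and 52.3% of its bases are G or C. Of 32851 promoters of the same length, 35.4% hold AGGAAG, 1.79% TGACGTCA, 13.6% TATAAA and 37.4% CCAAT, and their median share of G or C was 52.7%. A match is a description of letters and not of binding.

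Of the 6 probe sets, 5 had both NKO samples above both controls, and 1, of Rgs5, had both below. Over all 45037 probe sets, 24.2% were higher in this sense and 18.4% lower, but the selection used this contrast and nothing is read from the members' counts. Of the 603 selected probe sets with 1 gene name, 361 were higher and 233 lower, which is the background for every count of named genes below. The median log2 difference was 0.32 over the 6, against 0.25 over the 603 probe sets with 1 gene name and 0.013 over all. The Flt1 probe sets 1419300_at and 1451756_at were brighter than only 57.6% and 56.2% of probe sets, and that of Vwf than 60.2%. For Plvap the share was 76.5%, and for the Rgs5 probe sets 1420940_x_at and 1420941_at it was 67.0% and 62.7%. Whether the signal of any of the 6 lay above that of unexpressed genes was not tested. None of the 6 reached the methods' cutoff of 1.5-fold, which 0.286% of all probe sets reached upward and 0.158% downward. With limma over all probe sets, 0 had an adjusted p under 0.05 in either direction (0.0% higher and 0.0% lower), while without adjustment 2331 lay under 0.05 upward and 1641 downward. When limma's prior followed intensity and was fitted robustly, 313 passed upward and 207 downward.

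Flt1 encodes VEGF receptor 1, which binds VEGF tightly and limits its action on the main signaling receptor, and which is also made in a soluble form without the kinase. Its probe set 1419300_at read 93.7 and 108.1 in control 1 and 2, and 140.4 and 120.3 in NKO 1 and 2. The groups did not overlap, but control 2 and NKO 2 were close, 0.13 apart on the log2 scale, less than the 0.20 between the NKO samples. The mean was 101 ± 10.2 (SD, n = 2) in the controls and 130 ± 14.2 (SD, n = 2) in the NKO mutants, a ratio of 1.29 and a log2 difference of 0.32 (standard error 0.11).

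The other Flt1 probe set, 1451756_at, read 88.0 and 97.2 in the controls against 125.9 and 116.2 in the mutants. Here the groups were further apart than the samples within them, by 0.22 against 0.12 and 0.10 on the log2 scale. The ratio of the means was 1.31 and the log2 difference 0.34 (standard error 0.079). Thus both probe sets gave nearly the same difference, and the log2 distance between them was shifted by only 0.012 between the genotypes. Which of these forms of the receptor each probe set detects was not stated.

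Plvap encodes the protein of the diaphragms that span endothelial vesicles and pores. Its intensity (1418090_at) was 357.8 in control 1, 329.9 in control 2, 433.6 in NKO 1 and 415.4 in NKO 2. All 4 samples were well separated by genotype, with a gap of 0.21 on the log2 scale against 0.11 between the controls and 0.060 between the NKO samples. The mean was 344 ± 19.7 (SD, n = 2) in the controls and 425 ± 12.9 (SD, n = 2) in the NKO mutants, a ratio of 1.23 and a log2 difference of 0.29 (standard error 0.071), which lies within the range of the hybridization controls.

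Vwf encodes von Willebrand factor, which endothelial cells and megakaryocytes both make. On probe set 1435386_at, intensities of 157.0 and 144.5 in the mutants stood against 114.4 and 122.6 in the controls. Again neither NKO sample reached down to the controls, with a gap of 0.21 on the log2 scale against 0.088 between the controls and 0.11 between the NKO samples. The ratio of the means was 1.27 and the log2 difference 0.31 (standard error 0.074), also within the range of the hybridization controls.

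**Figure D1:**
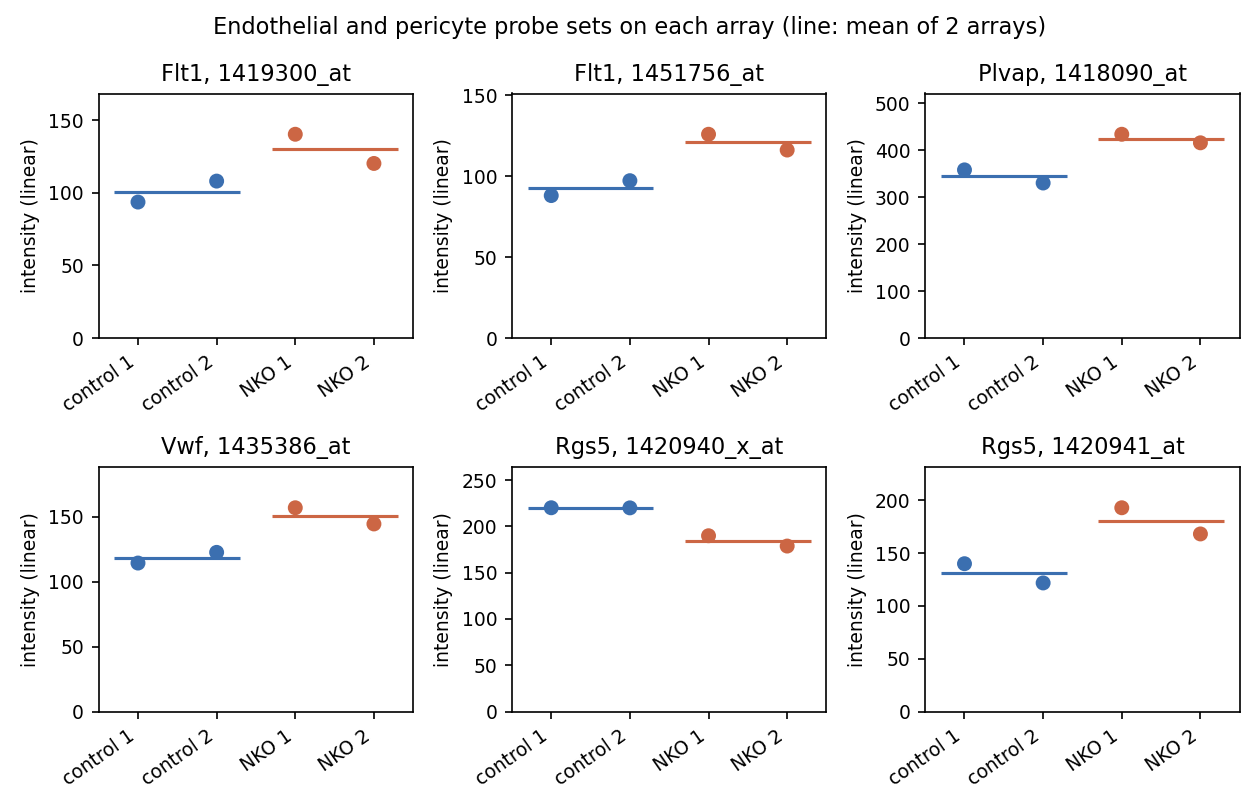
Intensity (linear, axes from 0) of each of the 6 probe sets on the 4 arrays, with controls in blue, NKO samples in orange and a line at the mean of the 2 samples of a genotype. Both NKO samples lie above both controls in 5 panels and below them in the panel of the Rgs5 probe set 1420940_x_at.

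Rgs5, the pericyte gene of an RGS protein, gave opposite directions with its 2 probe sets. Probe set 1420941_at read 139.9 and 121.7 in the controls against 192.9 and 168.1 in the mutants. Both NKO samples were the higher ones, by a ratio of the means of 1.38 and a log2 difference of 0.42 (standard error 0.11), the largest of the 6. The samples of a genotype were 0.18 apart in each case, and the genotypes 0.24. Probe set 1420940_x_at read 220.1 and 220.0 in the controls against 189.9 and 178.7 in the mutants. On this probe set both NKO samples were the lower ones, at 86.3% and 81.2% of the control mean, a log2 difference of −0.24 (standard error 0.062). The ending x_at is Affymetrix's mark for probe sets with probes that can also match other transcripts. Which transcripts these are was not stated.

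Set against each other sample by sample, the log2 distance from probe set 1420940_x_at to 1420941_at was −0.60 and −0.78 in the controls, with 1420941_at clearly the dimmer. In NKO 1 and 2 it was 0.021 and −0.081, so that both were about equally bright. The distance was therefore shifted by 0.66 between the genotypes, against 0.012 for the Flt1 probe sets. The mean of the Rgs5 differences was 0.091, so that the direction of the gene depends on the probe set chosen to stand for it. Such disagreement was rare among the selected probe sets. Of 52 genes with several probe sets named alone, 50 had the same sign with all of them, and 2, Rgs5 and Taf10, did not (3.85%). Taf10, named here after its values were seen, encodes a subunit of a general transcription factor and is the next gene to Ilk in the GRCm38.p6 annotation. Its probe sets differed by 1.37 (1455625_at) and −0.21 (1448784_at).

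Other genes of the family were listed as well. Of 10 RGS genes of the R4 subfamily, which includes Rgs5, 4 had a named probe set. Rgs4, also expressed in pericytes and neurons, is the next gene to Rgs5 in the GRCm38.p6 annotation. Its brighter probe set, 1416286_at, read 163.5 and 160.5 in the controls against 225.1 and 220.0 in the mutants, a log2 difference of 0.42 (standard error 0.058). The second, 1416287_at, had the same sign at 0.31 (standard error 0.088). Rgs18, an RGS gene of platelets that is also in the platelet list below, had log2 differences of 0.66 (standard error 0.061) and 0.69 (standard error 0.060) on its probe sets. Rgs16 was lower in both NKO samples, with 144.6 and 141.4 in the controls and 112.3 on each NKO array, a log2 difference of −0.31 (standard error 0.057). Without the member Rgs5, 2 of the other 3 genes were thus higher and 1 lower by their brightest probe sets. Among all 603 singly named probe sets, 361 were higher and 233 lower.

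**Figure D2:**
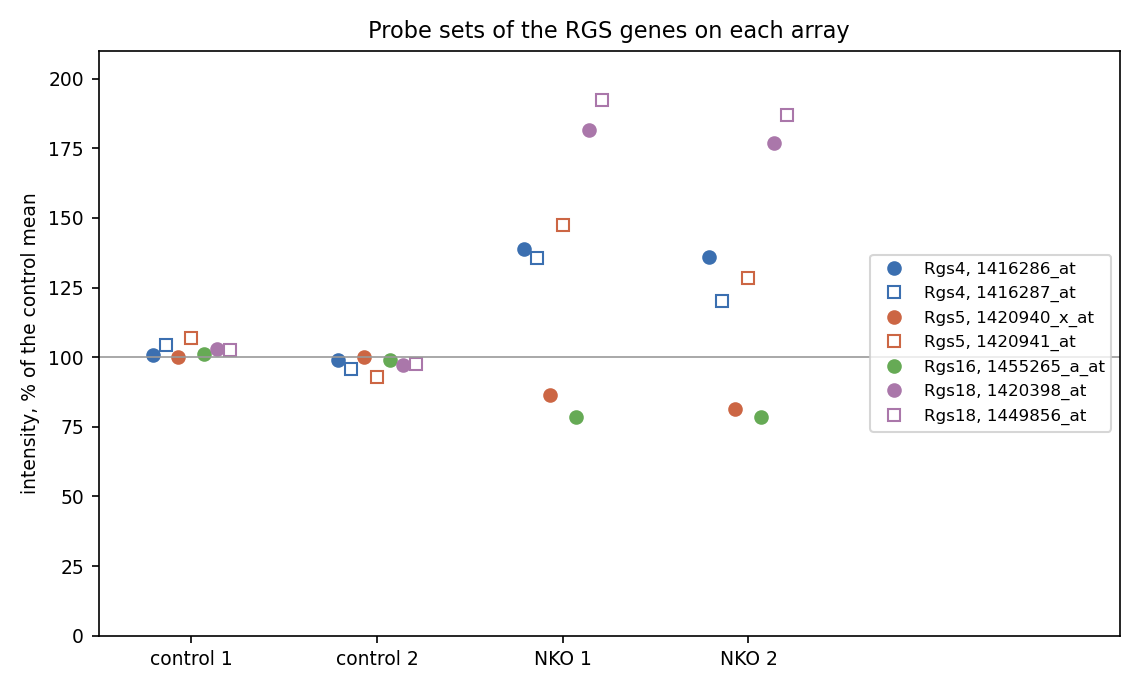
Intensity of the 7 probe sets of the RGS genes on the 4 arrays, as a percentage of the mean of the 2 controls, with colors for genes, filled circles for the brighter and open squares for the dimmer probe set of a gene. In the NKO samples the Rgs5 probe set 1420941_at lies near those of Rgs4, and 1420940_x_at at 86.3% and 81.2% lies near that of Rgs16.

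In the endothelial list, 7 of 55 genes had a named probe set. Beside Flt1, Plvap and Vwf, these were Gata2 and Tal1, transcription factor genes shared by blood and endothelial precursors, Podxl, which encodes the sialomucin podocalyxin of the luminal surface, and Calcrl, which encodes the receptor that endothelial cells use for adrenomedullin. The log2 difference was 0.31 for Gata2 (standard error 0.074), 0.27 for Podxl (standard error 0.056) and 0.25 for Tal1 (standard error 0.057). Those of Podxl and Tal1 lay within the range of the hybridization controls (0.08 to 0.31), and that of Gata2 just above it. For each of these genes, both NKO samples were the higher ones. Calcrl was lower in both, at 367.0 and 379.9 against 445.0 and 435.4 in the controls, a log2 difference of −0.23 (standard error 0.059). Without the members Flt1, Plvap and Vwf, 3 of the 4 others were higher and 1 lower, with a median of 0.26. Among all 603 singly named probe sets, 361 were higher and 233 lower. The summed intensity of the 4 was 1194 and 1211 in the mutants against 1111 and 1124 in the controls. None of the 8 genes set as defining markers of endothelium (Pecam1, Cdh5, Kdr, Tek, Tie1, Emcn, Cldn5 and Esam) has a named probe set, so their levels were not analysed here and the presence of endothelial cells could not be checked against them.

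Of 21 pericyte and mural genes, 3 had a named probe set: Rgs5, Rgs4 and Zic1, a transcription factor gene of the dorsal neural tube that is also expressed in pericytes of the brain. Zic1 read 101.8 and 105.6 in the controls against 65.0 and 48.6 in the mutants, a log2 difference of −0.73 (standard error 0.13). Pdgfrb, Cspg4, Anpep, Abcc9, Kcnj8 and Notch3, the usual markers of pericytes, have no named probe set and were not analysed here. Of 14 smooth muscle genes 4 were named, 3 of them higher in both NKO samples and 1 lower. Among all 603 singly named probe sets, 361 were higher and 233 lower. The log2 difference was 0.44 for Tagln, 0.38 for Cald1, 0.26 for Tpm2 and −0.29 for Tpm1. That of Tpm2 lay within the range of the hybridization controls (0.08 to 0.31). In the VEGF list, Arnt, the partner of the hypoxia-inducible factors, was the only named gene of 19 beside Flt1. Its log2 difference was 0.27 (standard error 0.065), also within the range of the hybridization controls.

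Named partners of von Willebrand factor were platelet genes. Gp1ba and Gp1bb, which encode the platelet receptor for this factor, differed by 0.60 (standard error 0.14) and 0.49 (standard error 0.085) on the log2 scale, and Itgb3, which encodes the β chain of the platelet integrin that also binds it, by 0.42 (standard error 0.080). All 3 were higher in both NKO samples, beside 361 higher and 233 lower among all 603 singly named probe sets. The same 3 genes are counted again in the platelet list below. The other genes of the 12 partners have no named probe set. Whether Gp1ba, Gp1bb and Itgb3 differed from Vwf beyond error was not tested.

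**Figure D3:**
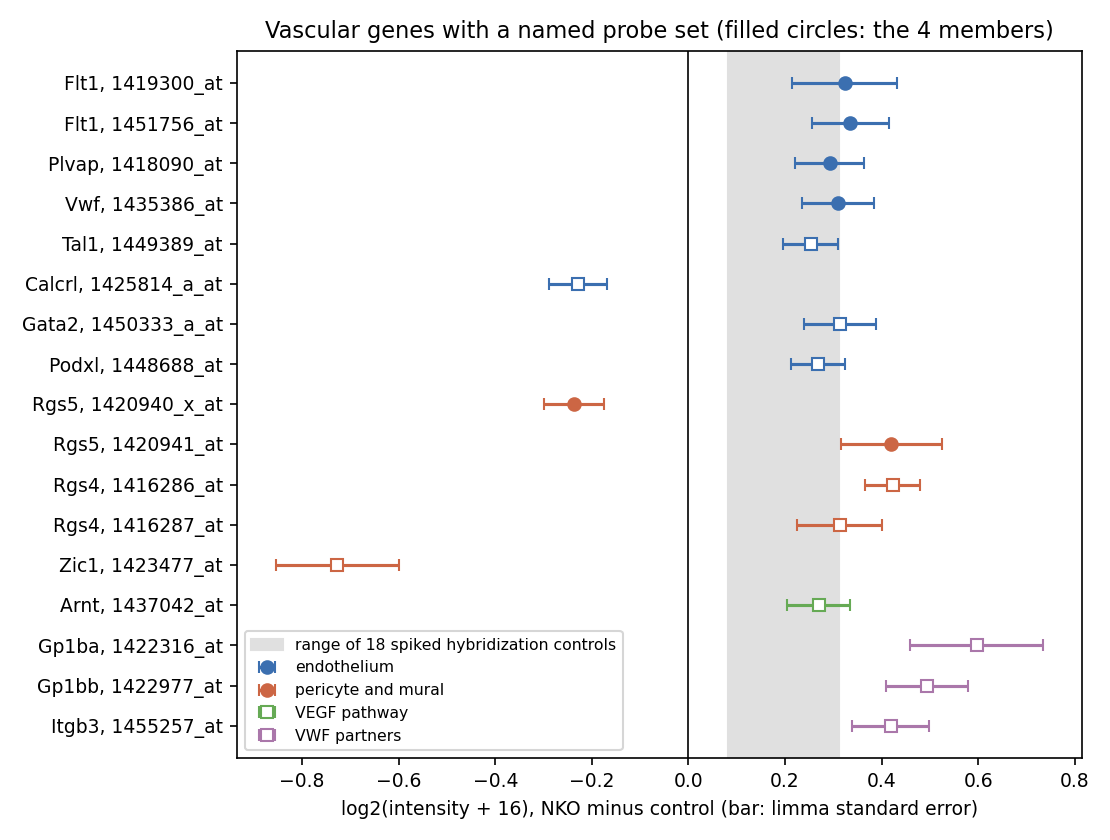
Difference in log2(intensity + 16), NKO minus control, with limma's standard error, for all named probe sets of the endothelial, pericyte and mural, VEGF and von Willebrand factor lists, and the range of the hybridization controls (0.08 to 0.31) in grey. Filled circles are the 6 probe sets of Flt1, Plvap, Vwf and Rgs5, and Calcrl, Zic1 and 1420940_x_at lie left of 0.

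Some markers of blood cells were also among the selected genes, of which 361 of 603 probe sets were higher and 233 lower, and 24.2% of all probe sets were higher. Without Vwf, 11 of 26 megakaryocyte and platelet genes had a named probe set and all 11 were higher in both NKO samples, with a median of 0.62. Summed, their intensity was 4610 and 4477 in the mutants against 2641 and 2589 in the controls. All 4 named of 20 myeloid genes were higher too, with sums of 669.9 and 627.0 against 434.8 and 423.9. All 4 named of 18 red blood cell genes were also higher, with sums of 3583 and 3634 against 2995 and 3057. Car2, the brightest of them, read 1965 and 1901 in the mutants against 1631 and 1683 in the controls. The log2 differences of Alas2 (0.23), Slc4a1 (0.29) and Car2 (0.22) lay within the range of the hybridization controls (0.08 to 0.31). The blood cell genes too have names only because they had been selected as different. Only 1.28% to 1.51% of the probe sets on an array read below 1, so an intensity above 0 does not show that blood cells were present. The part of blood cells in the differences of Flt1, Plvap, Vwf and Rgs5 was not tested. Of the genes that mark neural crest and its mesenchyme, 3 of 22 were named, Pax3, Msx2 and Prrx1. All 3 were higher in both NKO samples, against the same background of 361 of 603. The log2 difference was 0.44 for Pax3, 0.28 for Msx2 and 0.24 for Prrx1. Those of Msx2 and Prrx1 lay within the range of the hybridization controls. The other 19, among them Sox10 and Foxd3, were not analysed here.

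Within the NKO genotype, sample 1 was brighter than sample 2 on all 6 member probe sets, including the one with the lower signal. Over all probe sets, NKO 1 was the brighter in 56.1%. The controls had no such common order, since control 1 was the brighter for Plvap and both Rgs5 probe sets and control 2 for Vwf and both Flt1 probe sets. The difference of 1419300_at (Flt1) was 0.22 without NKO 1 and 0.42 without NKO 2, and that of 1420941_at (Rgs5) was 0.33 and 0.51.

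**Figure D4:**
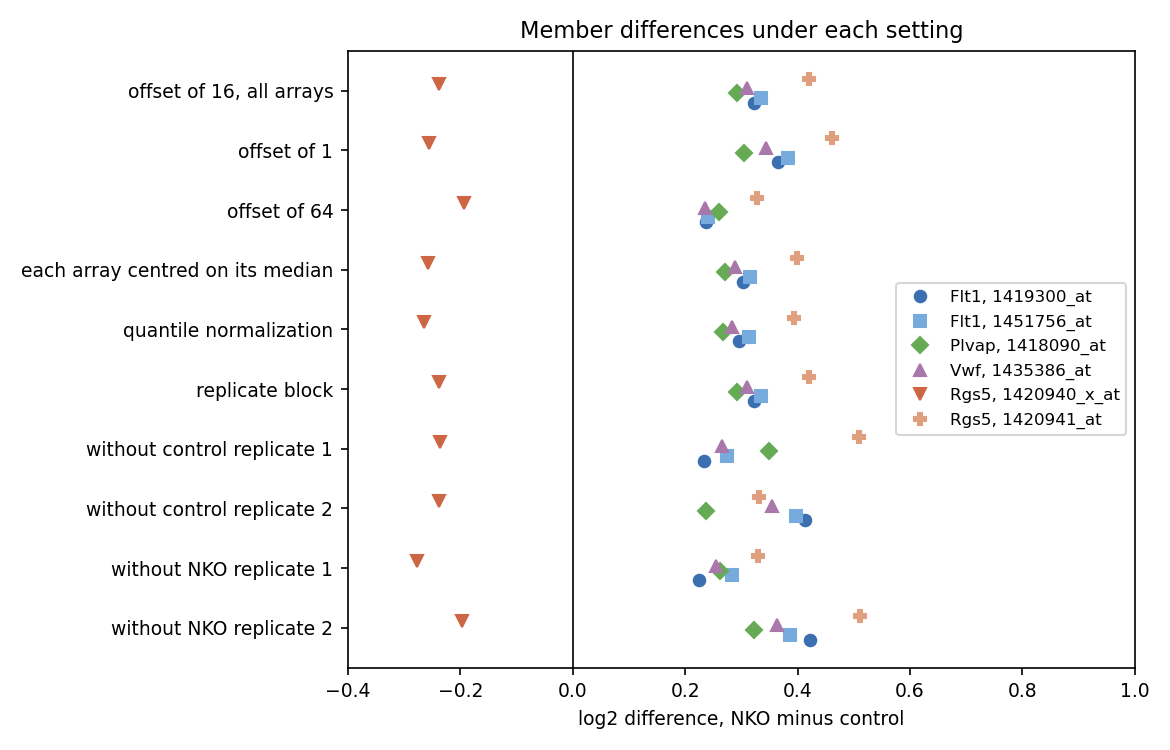
Difference in log2 intensity, NKO minus control, of the 6 probe sets under 10 settings, from the offset of 16 with all arrays down to the fits without 1 sample. Symbols of 5 probe sets stay between 0.22 and 0.51, and those of 1420940_x_at between −0.28 and −0.19.

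The genes whose pattern over the 4 arrays was most like each member were sought among the named probe sets brighter than the median probe set, by the Euclidean distance between log2 values centred on each probe set's mean. For Plvap, the nearest was Ncf4, which encodes a subunit of the phagocyte oxidase, at a distance of 0.010, followed by Dync1li1, a dynein subunit gene, and Dlg1, the gene of a scaffold protein. For Vwf, it was Hbegf, a growth factor gene of the EGF family, at 0.024, followed by Slc4a1, the anion exchanger of red blood cells, and the transcription factor gene Klf6. For Flt1 (1419300_at), Vps33b, a gene of vesicle trafficking, was nearest at 0.054, followed by Mapk8, which encodes the kinase JNK1, and Zyx, which encodes the focal adhesion protein zyxin. For the brighter Rgs5 probe set, 1420940_x_at, it was Zcchc5 at 0.014, followed by Epha3, an ephrin receptor gene, and Ndufs8, a gene of mitochondrial complex I. These distances rest on 4 arrays, all of the same contrast, and describe these samples only.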

How the data were processed

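RNA of FACS-sorted cardiac NCCs was measured on 4 Affymetrix arrays, 2 per genotype. The values are linear intensities per probe set, deposited by the authors after a normalization by a method not given in the sources used here, though Affymetrix Expression Console stands in the submitters' processing notes. They are on the scale of the authors' deposited control intensity, from which the average over both controls deviated by at most 0.0447%. The authors' deposited table of their own comparison (766 probe sets at a Bonferroni threshold of 0.05) was used for gene names; its fold and p columns were not. It names 1 gene for 603 probe sets, several for 48 and none for 115.

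The 64 Affymetrix controls were left out and 45037 probe sets compared as log2(intensity + 16), which understates the change of dim genes, by linear models with empirical Bayes moderation (limma 3.58.1, R 4.3.3) and Benjamini-Hochberg adjustment at 0.05. The fit was first tested on simulated data. Python 3.11.15, pandas 2.3.3, numpy 2.4.6 and matplotlib 3.10.9 served for the rest. With 2 samples against 2, a two-sided exact permutation test cannot give a p below 0.333, and the number of arrays limits the precision.

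The members and the gene lists were chosen with earlier results of these data known. Named were all members, all named genes of the vascular, VEGF, von Willebrand factor and RGS lists, up to 4 of largest difference in each other list, Ilk, and the 3 nearest patterns per member; others are marked where they appear. In lists a gene is represented by its brightest named probe set. The lists of heart muscle (8 of 22 named, all 8 lower in both NKO samples) and neuronal genes (14 of 17 named, all 14 higher) were checked as markers of other cells, beside 361 higher and 233 lower of all 603 singly named probe sets. Alternatives were other offsets (1 and 64), median centring, quantile normalization, an intensity trend with robust moderation, dim probe sets left out, each sample left out, the replicate number as a block and the methods' t-test.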

Additional observations from a re-analysis of the deposited data

How the results depend on the processing

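Since the groups did not overlap in any of the 6 member probe sets, other offsets, the replicate block and leaving out 1 sample could not turn a sign. Median centring and quantile normalization could in principle, but the array medians were already close and both moved the differences only slightly. Flt1 (1419300_at) went from 0.32 to 0.30 and Rgs5 (1420940_x_at) from −0.24 to −0.26 with either. The unchanged signs are therefore not a check that could have failed. With an offset of 64, Flt1 (1451756_at) moved to 0.24, Vwf to 0.23 and Rgs5 (1420940_x_at) to −0.19. Without 1 sample, the ranges were 0.22 to 0.42 (Flt1 1419300_at), 0.27 to 0.40 (Flt1 1451756_at), 0.24 to 0.35 (Plvap), 0.26 to 0.36 (Vwf), −0.28 to −0.20 (Rgs5 1420940_x_at) and 0.33 to 0.51 (Rgs5 1420941_at). The Rgs5 difference by the brightest probe set, −0.24, was reversed to 0.091 by the mean of both its probe sets.

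The 129 probe sets at least 1.5-fold higher and 71 lower became 1778 and 1557 with an offset of 1, 23 and 13 with an offset of 64, 38 and 13 with dim probe sets left out, and 226 to 387 and 145 to 259 without 1 sample. Limma's 0 calls in each direction became 43 higher and 17 lower with an offset of 64, 36 and 16 with dim probe sets left out and 313 and 207 where the prior followed intensity and was robust. The methods' t-test passed 2258 higher and 1715 lower at its unadjusted threshold and 0 after Benjamini-Hochberg adjustment. The cause was not tested. Same-numbered samples did not deviate together (r = -0.033 over all probe sets). This single correlation cannot exclude a shared batch that acts on some probe sets. With the replicate block limma again passed 0 probe sets and the differences were the same by construction (0.42 for Rgs5 1420941_at). Without dim probe sets, 1 RGS gene in place of 2 was higher, since Rgs18 was left out.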

Other observations

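Some further genes with roles in vessels, outside the lists, were chosen after their values were seen. Of all 603 singly named probe sets, 361 were higher and 233 lower in both NKO samples, so lying apart is usual in this selection. Edn1, which encodes the endothelial peptide endothelin 1, read 60.6 and 58.8 in the controls against 112.7 and 95.0 in the mutants, a log2 difference of 0.66 (standard error 0.094). Angptl1, an angiopoietin-like gene, was lower in both NKO samples at −0.40 (standard error 0.059), and Agtr2, which encodes an angiotensin receptor, at −0.38 (standard error 0.079). The authors had selected all 3 as different on these arrays, so no test is given.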
